A study of Homo sapiens with 4 samples.

Results

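The family of miR-130, miR-301 and miR-454 was taken by name as every strand of miR-130a, miR-130b, miR-301a, miR-301b and miR-454 in a table of mature miRNAs, which gave 8 of its 1345 rows. The values came from small-RNA sequencing of 4 libraries. The cells were HCT116, an established line from a human colorectal carcinoma, carrying a short hairpin RNA (shRNA) against SAE2 that doxycycline switches on. SAE2 is the catalytic subunit of the enzyme that activates SUMO, a small protein attached to other proteins. The 2 plus libraries, labelled sh-plus (replicate 1) and sh2-plus (replicate 2), were read as induced, and the 2 minus libraries, labelled sh1-minus (replicate 1) and sh2-minus (replicate 2), as not induced. This reading rests on those words, because the same 3-day doxycycline treatment is described for all 4. sh1 and sh2 are independent shRNAs in separate lines, and plus replicate 1 was placed in the sh1 line by elimination. All groups carry the shRNA construct, cells given doxycycline but no SAE2 shRNA were not analysed here, and SAE2 mRNA is not measured in miRNA libraries.

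A miRNA guides Argonaute proteins to messenger RNAs that pair with its seed, bases 2 to 8 of the mature strand, and lowers their output. The 3p strands of this family share the seed AGUGCAA and so address the same kind of site. Each hairpin also gives a 5p strand, usually the less abundant one, which has another seed and therefore other targets.

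The mature sequences below are shown because the shared seed defines the family and the rest of each strand is what tells the rows apart. Of the 8 rows, 7 had a mature sequence in the RefSeq set used here (GRCh38.p14). miR-130a-3p had none in that set and is named only. The row miR-301b carries no arm in its name, and the RefSeq entry shown for it is miR-301b-3p. Capitals mark bases 2 to 8, first in the 3p and then in the 5p strands.
miR-454-3p: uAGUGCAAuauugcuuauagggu
miR-301a-3p: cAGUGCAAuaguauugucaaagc
miR-301b-3p: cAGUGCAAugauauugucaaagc
miR-130b-3p: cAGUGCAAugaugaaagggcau
miR-454-5p: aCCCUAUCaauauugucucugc
miR-301a-5p: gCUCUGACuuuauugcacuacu
miR-130b-5p: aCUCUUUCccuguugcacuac

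The 4 strands of the 3p arm printed here have the same seed, and the 3 strands of the 5p arm have 3 different ones. miR-301a-3p and miR-301b-3p were the closest pair, with 21 of 23 bases identical and the substitutions A10G and G11A, positions counted from the 5′ end and the base of miR-301a-3p given first. miR-454-3p also differed at its first base (U1C against miR-301a-3p) and matched miR-301a-3p at 13 of 23 bases. None of the 8 rows had the same values as another row of the table. Among the 2370 mature names of that RefSeq set, 6 had this seed, and the 2 outside the family, miR-3666 and miR-4295, were not among the rows analysed here. miR-130a-3p is not counted among the 6, because the set holds no sequence for it.

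The family comes from 3 loci. The hairpins MIR301A (chr17:59151136-59151221) and MIR454 (chr17:59137758-59137872) lie 13263 bases apart on the minus strand, both in introns of SKA2, which encodes a subunit of a spindle and kinetochore complex. MIR301B (chr22:21652981-21653058) and MIR130B (chr22:21653304-21653385) lie 245 bases apart on the plus strand of GRCh38. MIR301B is within an intron and MIR130B overlaps an exon of the noncoding gene AP000553.1, and the nearest protein-coding gene, SDF2L1, ends 8683 bases before MIR301B. MIR130A (chr11:57641198-57641286, plus strand) lies alone in an intron of the noncoding gene AP000662.1. Gene positions are those of GENCODE release 29 on GRCh38, whereas the submitters' processing notes name hg19, and no coordinate entered any value.

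The hairpins of the pairs with both strands measured are shown with the 5p and the 3p strand in capitals, since the balance between these strands is one of the readouts.
MIR454: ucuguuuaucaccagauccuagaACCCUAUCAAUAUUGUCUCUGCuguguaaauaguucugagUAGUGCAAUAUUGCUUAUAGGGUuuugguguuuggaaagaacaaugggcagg
MIR301A: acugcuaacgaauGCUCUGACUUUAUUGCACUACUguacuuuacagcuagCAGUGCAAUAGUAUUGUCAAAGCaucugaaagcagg
MIR130B: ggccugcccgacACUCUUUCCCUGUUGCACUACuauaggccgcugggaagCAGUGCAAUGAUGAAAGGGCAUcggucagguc
The letters UUGCACU, the reverse complement of the seed, start at base 13 of miR-301a-5p and of miR-130b-5p and are not in miR-454-5p. Only the RNA strand as listed was searched, and 8 of the 2370 mature names (0.338%) hold these letters.

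The deposited values were read as normalised read counts adjusted for library size, which rests on the values themselves. They summed to 9833885 and 10519207 in plus replicates 1 and 2, and to 9847531 and 9700472 in minus replicates 1 and 2. 1 read was worth 0.94 to 1.03 normalised counts, so a value is close to a number of reads. Counting error was at most 0.765% of the value for miR-454-3p, the highest row, and 10.2% to 13.3% for miR-454-5p, the lowest. Summed epithelial marker miRNAs lay at 288928 to 292011 in the plus libraries, against 246631 to 254322 in the minus libraries, and 5 of the 7 on the list rose, against 13.4% of all tested miRNAs. The 5 blood markers summed to 1021 to 1191 in the plus and 989 to 1207 in the minus libraries, and the 5 stromal and endothelial markers to 13455 to 16189 in the plus and 15960 to 16012 in the minus libraries. Of the 4 blood markers tested none passed (limma), also at an unadjusted p under 0.05, and of the 4 stromal and endothelial ones 1 rose and 1 fell. The 4 muscle, liver and neuron markers with a row summed to 88.3 to 95.9 in the plus and 68.6 to 69.8 in the minus libraries, and miR-133a was listed at 0 in both minus libraries. The part of these marker levels in the results was not tested. All libraries were of the HCT116 line, and the number of cells making a miRNA cannot be told apart from its level per cell. The libraries of a condition come from separate lines, so the spread within a condition is that between 2 lines. The limma p-values rest only in small part on a row's own spread. Most of the variance estimate comes from a trend over all tested miRNAs (43.0 prior against 2 residual degrees of freedom).

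Most of the family counts came from 1 strand. miR-454-3p had means of 18031 ± 592 normalised counts in the plus and 21580 ± 1142 in the minus libraries (SD, n = 2 each), which was 80.3% of all family counts in the plus and 82.6% in the minus libraries. It ranked 60th of the 1345 rows by mean level. The next strand, miR-130b-3p, was 13.5-fold lower in the plus and 14.8-fold lower in the minus libraries. All mature strands are 21 to 23 bases long where a sequence was printed, so counts were compared without a length correction, and differences in how well strands are captured in a library remain within these levels.

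Below miR-454-3p the order by mean was miR-130b-3p, miR-130a-3p, miR-130b-5p, miR-301a-3p, miR-301b, miR-301a-5p and miR-454-5p, the same in both conditions. Neighbours in this order did not overlap between the 2 libraries of a condition. The smallest steps were miR-130b-3p over miR-130a-3p in the plus libraries (1.20-fold) and miR-130a-3p over miR-130b-5p in the minus libraries (1.13-fold). With 2 libraries a condition, such a gap says little about further libraries.

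**Figure D1:**
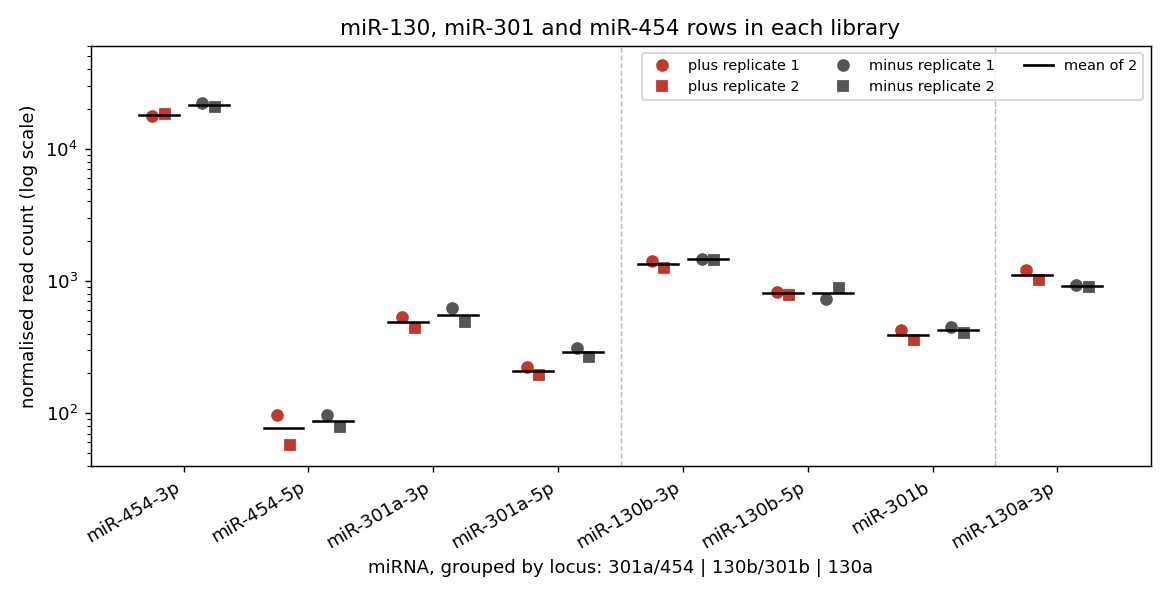
Normalised read count on a log axis of the 8 family rows in each library, plus in red and minus in grey, with replicate 1 as circles, replicate 2 as squares and bars for the mean of 2. miR-454-3p lies far above the rest, at 18031 in the plus and 21580 in the minus libraries. miR-454-3p, miR-301a-5p and miR-130b-3p are lower in both plus libraries than in both minus libraries, as were 33.9% of all tested miRNAs. miR-130a-3p is higher in both plus libraries, as were 29.1%.

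Induction was compared across all 709 miRNAs with a mean of at least 10, with limma on log2(value + 1) and Benjamini-Hochberg adjustment over all of them. The 8 family rows were all tested, 2 fell, none rose, and 6 did not pass at an adjusted p of 0.05. The 2 calls are 25% of the family, and the share called among all tested miRNAs was 28.5%, with 15.1% lower and 13.4% higher, so the number of calls does not set the family apart. At an unadjusted p under 0.05 limma had 1 rise in the family, that of miR-130a-3p, and 17.5% of all tested miRNAs rose by that rule. The median log2 change was −0.16 over the 8 rows and −0.03 over all 709. 6 of the 8 changes were negative, against 52.2% of all those tested. In 4 of the 8 rows the libraries of the conditions did not overlap, against 62.9% of all those tested. The 2 calls were both from the miR-301a/miR-454 locus.

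miR-454-3p, the main guide strand of its hairpin, had 17613 and 18449.9 normalised counts in plus replicates 1 and 2, against 22388 and 20772 in minus replicates 1 and 2. Both plus libraries lay below both minus libraries. The strand fell by 16.4%, with a log2 change of −0.26 and a standard error of 0.08 (limma adjusted p = 0.0154). 30.9% of the tested miRNAs had a lower log2 change. The call was lost without any 1 library, while the log2 change stayed between −0.31 and −0.20. Such a fit leaves 1 library in a condition, so the loss does not tell dependence on a library from a weaker fit. Under median-ratio scaling the adjusted p was 0.0582. Over the 11 alternatives that kept all libraries it ranged from 0.00489 to 0.230.

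miR-301a-5p, the strand opposite the family seed in MIR301A, had 225 and 193 normalised counts in plus replicates 1 and 2, against 312 and 267 in minus replicates 1 and 2. Here too the conditions did not overlap. It fell by 27.9%, with a log2 change of −0.47 and a standard error of 0.16 (limma adjusted p = 0.0209), the largest change in the family. The call was lost without plus replicate 1, plus replicate 2 or minus replicate 1, while the log2 change stayed between −0.58 and −0.36 with any 1 library left out. Here too the loss does not tell dependence on a library from a weaker fit. The call was also lost under quantile normalization (limma adjusted p = 0.0613). Over the 11 alternatives with all libraries the adjusted p lay between 0.0132 and 0.177.

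Its partner miR-301a-3p, which carries the family seed, had 534 and 441 normalised counts in plus replicates 1 and 2, and 621 and 486 in minus replicates 1 and 2. The conditions overlapped, since plus replicate 1 lay above minus replicate 2. The log2 change was −0.18 with a 95% interval of −0.45 to 0.10 (limma adjusted p = 0.346). miR-454-5p, the minor strand of MIR454, had 96.6 and 57.3 normalised counts in plus replicates 1 and 2 and 96.75 and 78.4 in minus replicates 1 and 2. Plus replicate 1 stood level with minus replicate 1 and plus replicate 2 below all others. Its log2 change of −0.22 had the widest interval of the family, −0.69 to 0.25 (limma adjusted p = 0.501).

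**Figure D2:**
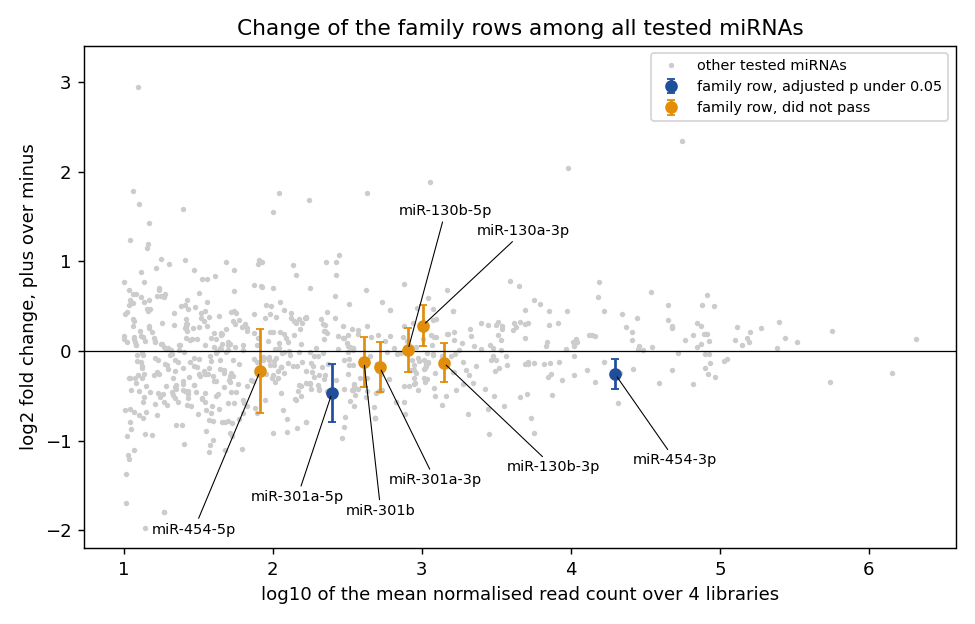
Log2 fold change, plus over minus, against the log10 of the mean normalised count for the 709 tested miRNAs (grey), with the family rows that passed in blue, those that did not in orange, and bars for the 95% interval from limma. miR-454-3p at −0.26 and miR-301a-5p at −0.47 lie below 0 with their intervals, within the spread of the other miRNAs.

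In the miR-130b/miR-301b locus no strand passed. miR-130b-3p had 1406 and 1265 normalised counts in plus replicates 1 and 2, against 1476 and 1446 in minus replicates 1 and 2. Both plus libraries were below both minus libraries, as for 33.9% of all tested miRNAs, and the log2 change of −0.13 had a 95% interval of −0.35 to 0.08 (limma adjusted p = 0.380). miR-301b, with the closest sequence to miR-301a-3p, had 428 and 358 in plus replicates 1 and 2 and 446.5 and 405 in minus replicates 1 and 2. These overlapped, with a log2 change of −0.12 and an interval of −0.40 to 0.16 (limma adjusted p = 0.540). miR-130b-5p, the minor strand of MIR130B, had 831 and 786 in plus replicates 1 and 2, inside the range of 728 and 884 in minus replicates 1 and 2. Its log2 change was 0.01, with an interval of −0.23 to 0.25 (limma adjusted p = 0.955). The intervals of miR-130b-3p and miR-301b include a fall of the size seen in miR-454-3p, and that of miR-130b-5p does not.

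miR-130a-3p, the family member of the miR-130a locus, was the one strand with higher values in both plus libraries. It had 1218 and 1013 normalised counts in plus replicates 1 and 2, against 927 and 899 in minus replicates 1 and 2. Both plus libraries lay above both minus libraries, as for 29.1% of all tested miRNAs. The mean in the plus libraries was 22.2% higher, at a log2 change of 0.28 with a standard error of 0.12, and missed the threshold (limma adjusted p = 0.0613). With the shRNA line as a replicate block the limma adjusted p was 0.0356, and under median-ratio scaling 0.0319. Both of these fits had infinite prior degrees of freedom, so the row's own spread did not enter either p-value. With equal totals the adjusted p was 0.228, and its range over the 11 alternatives with all libraries was 0.0319 to 0.265. Leaving out plus replicate 1 gave a log2 change of 0.15, and leaving out plus replicate 2 gave 0.42.

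The loci were then compared by the sum of their rows, which is a description without a test. The miR-301a/miR-454 locus summed to 18468 and 19142 normalised counts in plus replicates 1 and 2, against 23418 and 21605 in minus replicates 1 and 2, with a log2 ratio of the means of −0.26. Without miR-454-3p, an alternative chosen after the data were seen, its other 3 rows summed to 855 and 692 in plus replicates 1 and 2. In minus replicates 1 and 2 they summed to 1030 and 832, which overlapped. The means were 774 ± 116 in the plus and 931 ± 140 in the minus libraries (SD, n = 2 each), a log2 ratio of −0.27. The miR-130b/miR-301b locus summed to 2665 and 2408 in the plus and 2649.8 and 2736 in the minus libraries, replicates 1 and 2 in each, and these overlapped. The miR-130a locus, with its 1 row, was at 1116 ± 145 in the plus and 913 ± 19.8 in the minus libraries.

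The loci were also taken as shares of the family total. The miR-301a/miR-454 locus held 82.6% and 84.8% of family counts in plus replicates 1 and 2, against 86.7% and 85.6% in minus replicates 1 and 2. The miR-130b/miR-301b locus held 11.9% and 10.7% in the plus libraries and 9.82% and 10.8% in the minus libraries, which overlapped. The miR-130a locus held 5.45% and 4.49% in the plus libraries, against 3.44% and 3.56% in the minus libraries. The 8 rows together made up 0.227% and 0.214% of all counts in plus replicates 1 and 2, against 0.274% and 0.260% in minus replicates 1 and 2. The 95% Wilson intervals of these shares, which cover counting error only, ran from 0.224% to 0.230% and 0.212% to 0.217% in the plus, and 0.271% to 0.277% and 0.257% to 0.263% in the minus libraries. Without miR-454-3p the family summed to 4738 and 4113 normalised counts in plus replicates 1 and 2. In minus replicates 1 and 2 it summed to 4607 and 4468, which overlapped. The log2 ratio of the means was then −0.036.

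**Figure D3:**
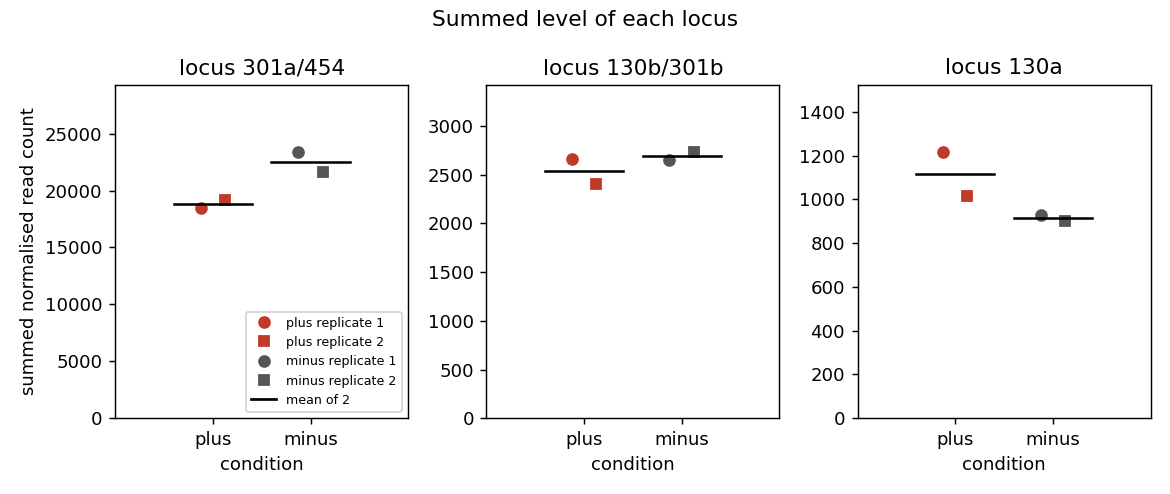
Summed normalised read count of the rows of each locus in each library on axes that start at 0, plus in red and minus in grey, with bars for the mean of 2 libraries. Both plus libraries lie below the minus libraries for miR-301a/miR-454 (18805 against 22511 by the means), overlap them for miR-130b/miR-301b and lie above them for miR-130a (1116 against 913).

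Ratios between single rows of 1 library do not depend on the library's scaling factor, and 6 were compared. For 2 libraries in each condition the smallest p of an exact two-sided permutation test is 0.3333, so none could pass. The ratio of miR-130a-3p to miR-130b-3p, the main strands of separate loci, was 0.866 and 0.801 in plus replicates 1 and 2, against 0.628 and 0.622 in minus replicates 1 and 2. The conditions did not overlap, the log2 difference was 0.41, and the exact permutation p was 0.3333 (0.8 adjusted over the 6 ratios). The log2 difference was 0.46 in the sh1 line and 0.37 in the sh2 line, and 0.36 to 0.47 with 1 library left out.

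Within a cluster, the ratios of the partners overlapped between the conditions in the values as deposited. miR-301b stood at 0.304 and 0.283 of miR-130b-3p in plus replicates 1 and 2, and at 0.303 and 0.280 in minus replicates 1 and 2, a log2 difference of 0.01 (exact permutation p = 0.667). The replicates 1 of both conditions were close to each other, as were the replicates 2. The ratio of miR-301a-3p to miR-454-3p was 0.0303 and 0.0239 in plus replicates 1 and 2, and 0.0277 and 0.0234 in minus replicates 1 and 2, with a log2 difference of 0.08 (exact permutation p = 0.667). Under quantile normalization, which is not a single factor per library, the conditions did not overlap for either ratio, with log2 differences of 0.27 and 0.34 (exact permutation p = 0.3333 each).

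The strand balance of MIR301A was the other ratio whose conditions did not overlap in the deposited values. miR-301a-5p was 0.422 and 0.438 of miR-301a-3p in plus replicates 1 and 2, against 0.503 and 0.5497 in minus replicates 1 and 2, a log2 difference of −0.29 (exact permutation p = 0.3333, 0.8 adjusted) that was −0.50 under quantile normalization. For MIR130B the 5p strand was 0.591 and 0.621 of the 3p strand in plus replicates 1 and 2, and 0.493 and 0.611 in minus replicates 1 and 2, which overlapped (log2 difference 0.14, exact permutation p = 0.667). Under quantile normalization they did not, at a log2 difference of 0.25 (exact permutation p = 0.3333). MIR454 was nearly one-sided, with its 5p strand at 0.429% of the 3p strand by the mean of the plus libraries and 0.405% by that of the minus libraries (exact permutation p = 1).

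**Figure D4:**
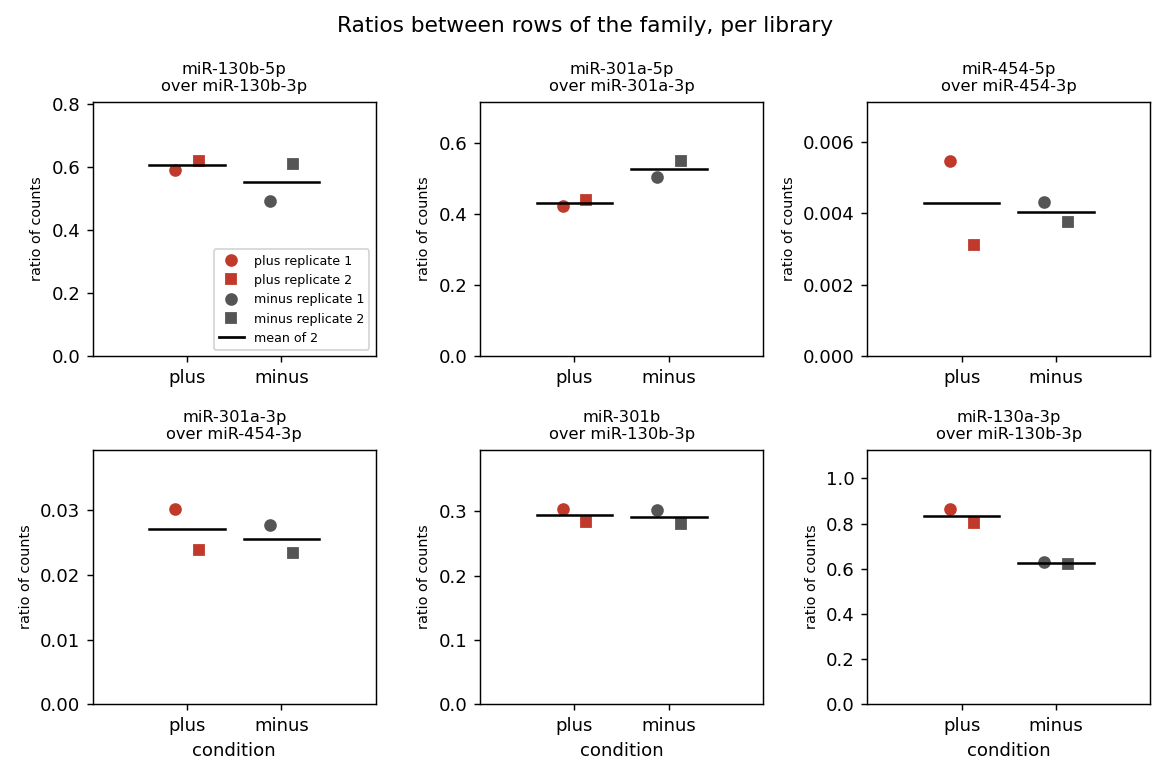
Ratio of normalised counts between 2 rows of the family in each library, on axes that start at 0, plus in red and minus in grey, with bars for the mean of 2. miR-301a-5p over miR-301a-3p (0.430 in plus, 0.526 in minus) and miR-130a-3p over miR-130b-3p (0.834 in plus, 0.625 in minus) are separated by condition, and the other 4 overlap.

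The change was also taken within each shRNA line, with 1 library in each condition and therefore no test. 6 of the 8 rows were lower in the plus library of both lines and 1, miR-130a-3p, was higher in both. The same count was not made over all tested miRNAs, so these numbers do not set the family apart. miR-301a-5p had the same log2 change, −0.47, in the sh1 and the sh2 line. miR-454-3p was at −0.35 in the sh1 and −0.17 in the sh2 line, and miR-130a-3p at 0.39 in the sh1 and 0.17 in the sh2 line. miR-454-5p was at −0.0024 in the sh1 and −0.45 in the sh2 line, on 57.3 to 96.75 normalised counts. miR-130b-5p was the row with opposite signs, 0.19 in the sh1 and −0.17 in the sh2 line.

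**Figure D5:**
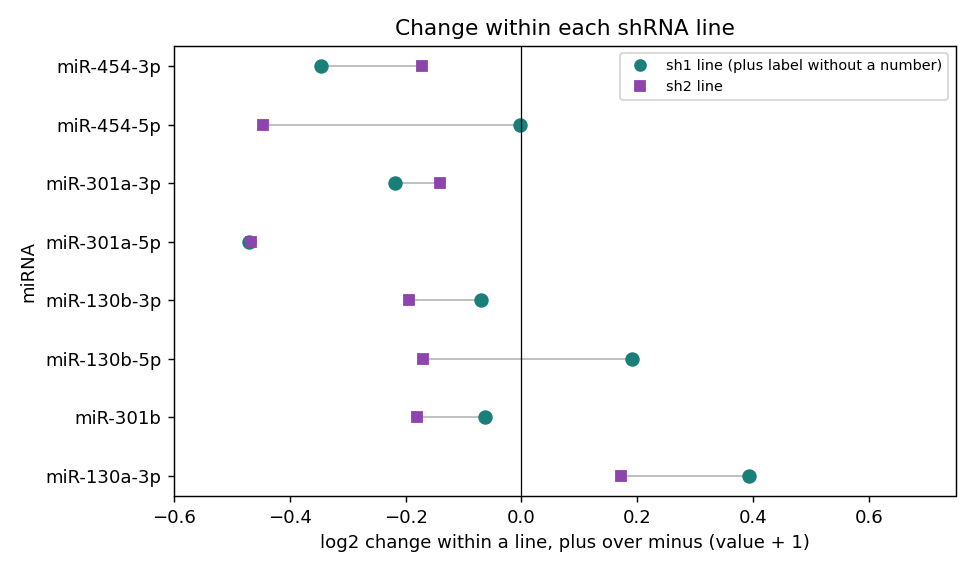
Log2 change, plus over minus on the value + 1 scale, of the 8 family rows within the sh1 line (circles) and the sh2 line (squares), 1 library per condition. miR-301a-5p lies at −0.47 in both lines, miR-130a-3p above 0 in both, and miR-130b-5p on opposite sides of 0.

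miRNAs whose seed is the family's seed moved by 1 base can share some of its sites. Of 5 such strands, 3 fell and 2 did not pass, where 15.1% of all tested miRNAs fell. miR-19a-3p had 3831 and 4123 normalised counts in plus replicates 1 and 2, against 7632 and 5861 in minus replicates 1 and 2 (log2 change −0.75, limma adjusted p = 6.92e-08), and miR-19b-3p of the same cluster had a log2 change of −0.58 (adjusted p = 7.78e-07). Both calls were lost without plus replicate 1 and without plus replicate 2, in fits that leave 1 library in a condition. Those fits had 2.8 prior degrees of freedom, against infinite ones without a minus library. The loss therefore does not tell dependence on a library from a weaker fit. With 1 library left out the log2 change was −0.94 to −0.56 for miR-19a-3p and −0.69 to −0.48 for miR-19b-3p. miR-148a-3p fell with a log2 change of −0.29 (adjusted p = 0.0101), a call lost without any 1 library (adjusted p from 0.0518 to 0.304). miR-148b-3p at −0.09 and miR-152 at −0.12 did not pass (adjusted p = 0.399 and 0.422). With all libraries kept, miR-19a-3p and miR-19b-3p lost the call with no filter on low values (limma adjusted p = 0.100 and 0.0968). They also lost it with no variance trend (0.0842 and 0.0866). miR-148a-3p lost it in both settings (0.315 and 0.308), under quantile normalization (0.176) and at a minimum mean of 100 (0.0613).

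The miRNAs with the most similar profiles over the 4 libraries were listed for the most abundant row of each locus, by the Euclidean distance of centred log2 values among 379 other rows with a mean of at least 100. For miR-454-3p they were miR-141-5p, miR-30a-5p and miR-32-3p, at distances of 0.03, 0.04 and 0.04. For miR-130b-3p they were miR-15b-5p, miR-98 and miR-744-5p, at 0.02, 0.04 and 0.06, and for miR-130a-3p they were miR-4326, miR-197-3p and miR-24-2-5p, at 0.04, 0.04 and 0.07. With 4 libraries, close profiles are a description of these libraries.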

How the data were processed

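Small RNA of HCT116 cells was sequenced in 4 libraries, 2 plus and 2 minus. The deposited signal per mature miRNA was read as a read count adjusted for library size. This comes from the values, which lie near multiples of a library-specific step and are not whole reads, so no count model was used. Cutadapt is named in the sample titles, and the submitters' processing notes list TopHat2 2.0.8b, edgeR, hg19 and GRCh37 and do not say what each was used for. Not given in the sources used here are the read counter and the miRNA annotation. Columns name the second line sh4 where titles name it sh2, and were matched by library number and index.

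limma 3.58.1 in R 4.3.3 was fitted to log2(value + 1) for plus against minus, two-sided and with the variance as a trend on the mean, over the 709 rows with a mean of at least 10. Each fit had 2 residual and 43.0 prior degrees of freedom. Fold changes on this scale are understated for low rows. The fit was tested on simulated counts with the same negative-binomial dispersion in all rows and no difference between lines. That is simpler than these data, so it does not show how the fit behaves on them. Alternatives were 4 scalings, 2 pseudocounts, 2 level filters, no trend, 1 row per identical set, the shRNA line as a block, and each library left out. The replicate numbers mark the shRNA lines, by elimination for plus replicate 1, and deviations of same-numbered libraries correlated at 0.056 over 709 rows and at 0.155 over the 386 with a mean of at least 100.

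Every row of the family is named. Beside them, named rows are those with the seed moved by 1 base and the 3 nearest profiles per locus. The members, lists and tests were chosen with earlier results of these data known. Intervals on shares and counting errors cover counting error only, since reads are not independent molecules.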

Additional observations from a re-analysis of the deposited data

Results flagged for a closer look

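miR-130b-5p moved in opposite directions in the 2 shRNA lines, with a log2 change of 0.19 in the sh1 line and −0.17 in the sh2 line. Each line has 1 library per condition, so the difference was not tested.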

How the results depend on the processing

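The family had 2 calls of 202 in all. It had 3 of 216 with the shRNA line as a replicate block, 1 of 101 under quantile normalization, and 0 of 5 both with no filter on low values and with no trend. With 1 library left out it had 0 to 1, and all miRNAs 7 to 115 (7 or 8 when plus replicate 1 or 2 was left out, 95 or 115 when minus replicate 1 or 2 was). Under the other 7 alternatives with all libraries the family count was 2, but under median-ratio scaling these were miR-130a-3p and miR-301a-5p, without miR-454-3p. 1 of the 7, scaling by a trimmed mean of log ratios (TMM), had factors of 0.9999 to 1.0002. It could therefore hardly differ from the main fit. The block changed no call of the family but that of miR-130a-3p.

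Some changes that had not passed turned sign. miR-130b-5p was at −0.047 with equal totals, and miR-301a-3p at 0.0053 and miR-301b at 0.081 under quantile normalization. Leaving out 1 library at a time gave log2 changes of −0.13 to 0.15 for miR-130b-5p, −0.25 to 0.0077 for miR-301b and −0.60 to 0.15 for miR-454-5p. Likewise the log2 difference of the ratio ranged from −0.0135 to 0.30 for both MIR130B strands, −0.38 to 0.44 for both MIR454 strands, −0.091 to 0.25 for miR-301a-3p over miR-454-3p and −0.045 to 0.066 for miR-301b over miR-130b-3p. The 3 locus sums kept their direction under all alternatives. Causes were not tested. miR-454-5p had the lowest values of the family, 57.3 to 96.75 normalised counts, with a counting error of 10.2% to 13.3%.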
